A study of Mus musculus with 12 samples.

Results

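A set of 7 genes of skin epithelium, Oas1f, Aox4, Serpinb12, Wnk2, Cd109, Zbtb7c and Sh3gl2, were followed across mouse skin wounds treated with capsaicin (CAP), the pungent compound of chili peppers. They were picked from the 55487 genes of the deposited tables because their TPM values (read abundance scaled for transcript length and library size) at day 6 were higher with CAP than with sham gel, with no overlap between the 3 libraries of each. The 7 genes were therefore selected on the day 6 values, which are given below as a description with no test. Among genes averaging 0.3 TPM or more in each group, 1467 met this rule, so it does not by itself single out these 7. RNA was measured by RNA-seq in 12 libraries, 3 in each of 4 groups of full-thickness punch wounds on the backs of male C57BL/6JNarl mice that were 6 weeks old. The CAP groups received 10 µM CAP in 200 µL of 25% Pluronic F127 gel once daily, the sham groups received 200 µL of the same gel alone, and tissue was taken at day 3 or day 6. No group was left without gel, so each comparison is of CAP in gel with gel. Each mouse carried a pair of wounds, and the labels do not say whether libraries share a mouse, so the p-values measure the spread between libraries. A TPM table keeps no record of sequencing depth, and in whole wound tissue fewer cells of a type cannot be told apart from less RNA per cell.

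The epidermis renews from basal keratinocytes, which express keratin 14 (Krt14), into spinous cells, which express keratin 10 (Krt10), and then into granular and cornified layers that form the barrier. Re-epithelialisation of a wound begins with migrating keratinocytes at the edge and ends with a stratified sheet. The 7 genes act in different processes. Oas1f is one of the mouse paralogues of 2'-5'-oligoadenylate synthetase 1, a family of interferon-induced enzymes that sense double-stranded RNA. Aox4 encodes an aldehyde oxidase, a molybdenum-containing enzyme that can oxidise retinaldehyde to retinoic acid. Serpinb12 encodes an intracellular clade B serpin that inhibits trypsin-like proteases, and Wnk2 encodes a kinase of the family that controls cation-chloride cotransporters. Cd109 encodes a membrane-anchored relative of alpha-2-macroglobulin that binds transforming growth factor-β (TGF-β) and restrains its signalling. Zbtb7c encodes a zinc finger repressor of transcription, and Sh3gl2 encodes endophilin A1, which bends membranes during endocytosis and is best known from synapses.

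All 7 are annotated as protein coding, and the coordinates in the deposited tables were those of GENCODE M21 (GRCm38). Oas1f (ENSMUSG00000053765) lies on chromosome 5 from 120847367 to 120857986 on the plus strand, among 12 oligoadenylate synthetase genes of that chromosome. Aox4 (ENSMUSG00000038242) lies on chromosome 1 from 58210397 to 58268597 on the plus strand, within the run Aox1, Aox3, Aox4, Aox2. Serpinb12 (ENSMUSG00000059956) lies on chromosome 1 from 106934449 to 106957080 on the plus strand, in a cluster of 12 of the 16 listed clade B serpins. Wnk2 (ENSMUSG00000037989) spans 49036303 to 49148014 on the minus strand of chromosome 13, Cd109 (ENSMUSG00000046186) spans 78615546 to 78716253 on the plus strand of chromosome 9, and Sh3gl2 (ENSMUSG00000028488) spans 85205126 to 85639195 on the plus strand of chromosome 4. Sh3gl2 overlaps Adamtsl1 on the same strand, but the exons of the pair share 0 bases. Aox4 shares 472 of its 8416 exon bases with the antisense transcript Gm15759, whose highest value was 0.158 TPM. Of the stretches of 31 bases in the Oas1f transcripts, 10.7% also occur in transcripts of other genes, most of them in Oas1c (6.49%), so reads from those stretches could be assigned to either gene. The corresponding share was 1.10% for Sh3gl2, 0.286% for Aox4 and 0.211% for Zbtb7c, and it was 0 for Serpinb12, Wnk2 and Cd109.

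Upstream sequence is shown for the 3 members with the highest day 6 fold, since they differed most between the groups. The 250 bases before the start site come from RefSeq (GRCm38.p6), where 5 of the 7 genes matched, with 6 start sites in all. Capitals mark matches on either strand to the AP-1 motif TGANTCA, the Grainyhead-like motif AACCNGTT, the core of the interferon-stimulated response element, the TATA box TATAAA or the KLF motif CACCC. No 2 marked matches overlap in these sequences.
Aox4, chr1:58210147-58210396, plus strand: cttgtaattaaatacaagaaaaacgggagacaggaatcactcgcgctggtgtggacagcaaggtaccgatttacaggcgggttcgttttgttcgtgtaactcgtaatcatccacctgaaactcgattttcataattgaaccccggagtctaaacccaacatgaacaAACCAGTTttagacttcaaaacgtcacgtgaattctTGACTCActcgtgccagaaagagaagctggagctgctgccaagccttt
Serpinb12, chr1:106934199-106934448, plus strand: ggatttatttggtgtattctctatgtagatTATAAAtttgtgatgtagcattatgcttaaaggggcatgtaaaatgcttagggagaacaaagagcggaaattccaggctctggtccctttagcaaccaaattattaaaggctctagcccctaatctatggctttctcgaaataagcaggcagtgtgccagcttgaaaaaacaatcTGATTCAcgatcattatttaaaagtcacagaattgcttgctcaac
Oas1f, chr5:120847117-120847366, plus strand: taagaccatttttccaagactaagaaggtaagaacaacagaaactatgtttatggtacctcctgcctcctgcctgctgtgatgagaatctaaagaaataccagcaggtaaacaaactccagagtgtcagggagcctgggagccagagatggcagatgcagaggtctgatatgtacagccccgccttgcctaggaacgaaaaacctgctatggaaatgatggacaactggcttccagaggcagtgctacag
The Aox4 sequence holds an AP-1 match that starts 48 bases before the start site and a Grainyhead-like match that starts 84 bases before it. In Serpinb12, an AP-1 match starts 45 bases before the start site and a TATA box match 220 bases before it. RefSeq holds a second Serpinb12 start site, at chr1:106938957, whose upstream bases hold no AP-1 match but a TATA box match 201 bases and a KLF match 11 bases before it. The Oas1f window holds 0 matches to the 5 motifs, including the interferon element core. Among 32851 promoters of the same length, 6.75% hold the AP-1 motif, 1.79% the Grainyhead-like motif, 2.98% the interferon element core, 12.4% the TATA box and 52.0% the KLF motif. A match is a run of letters and not evidence that a factor binds there.

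At day 6 the 7 genes were 1.75- to 3.81-fold higher in CAP-treated wounds than in the sham group by mean TPM. Aox4 had the highest fold, followed by Serpinb12, Oas1f, Zbtb7c, Sh3gl2, Wnk2 and Cd109. Among genes averaging 0.3 TPM or more in each group, 8.01% were higher in CAP without overlap (1467 of 18323), and nothing is read from the members' count of 7 of 7, since this contrast chose them. Ranked by log2 difference among these 1467 genes, the members lay between rank 24 for Aox4 and rank 448 for Cd109. Another 18.0% of genes were lower without overlap. This balance depended on scaling, since after median-ratio scaling 2345 genes were higher and 1944 lower. The share of higher genes among those without overlap went from 30.8% to 54.7%. The 7 members stayed above every sham library, and nothing is read from this, since they were chosen for it before scaling. Scaling moved the median log2 difference of all genes from -0.12 to -0.0038.

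In the sham group Aox4 was at 14.01, 23.02 and 14.58 TPM at day 3 and at 14.21, 14.14 and 12.95 TPM at day 6. In CAP-treated wounds Aox4 was at 20.7, 18.4 and 8.74 TPM at day 3 and at 68.4, 53.2 and 35.7 TPM at day 6. The lowest CAP library at day 6 was 2.51 times the highest sham library, the widest gap among the 7 genes, and the 3 other groups overlapped one another. The mean was 52.4 ± 16.3 TPM (SD, n = 3) in CAP and 13.8 ± 0.710 TPM (SD, n = 3) in the sham group, a difference of 1.87 ± 0.28 (SE) in log2(TPM + 0.1). Other molybdenum enzymes and retinoid enzymes did not share this size of difference. Of the 10 other genes of that list with enough signal at day 6, 1 was higher without overlap and 2 were lower. These counts are near the shares over all genes, 8.01% and 18.0%. The higher one was the neighbouring Aox3, at 4.48 ± 0.514 TPM (SD, n = 3) in CAP and 2.86 ± 0.983 TPM (SD, n = 3) in the sham group. Xdh, which encodes xanthine dehydrogenase and had the highest level of the list, overlapped between the groups, with a log2 difference of -0.17.

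Serpinb12 was at 19.3, 63.7 and 23.8 TPM in the sham group at day 3 and at 35.62, 35.19 and 31.02 TPM at day 6. It was at 27.1, 25.6 and 16.4 TPM in CAP-treated wounds at day 3 and at 136, 124 and 77.6 TPM at day 6. Sham replicate 2 at day 3 stood well above the other libraries of that day, and without overlap all 3 CAP libraries at day 6 stood above the rest of the series. Serpinb12 was also the only member whose CAP libraries at day 3 all lay below the sham libraries of day 6. The day 6 difference was 1.69 ± 0.26 (SE) on the log2 scale, from 33.9 ± 2.54 TPM (SD, n = 3) to 113 ± 31.1 TPM (SD, n = 3). Among the 13 other clade B serpins with enough signal at day 6, 4 were higher in CAP without overlap and 1 was lower. The shares over all genes were 8.01% and 18.0%, and the median log2 difference of these serpins was 0.31. The 4 were Serpinb5 (maspin), Serpinb7, Serpinb8 and Serpinb10, with log2 differences of 0.74, 1.01, 0.69 and 0.87. The most abundant other serpins, Serpinb6a and Serpinb2, overlapped between the groups, with log2 differences of -0.14 and -0.30. Serpinb9, the granzyme B inhibitor of immune cells, was the lower one, with a log2 difference of -0.60.

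Oas1f was at 45.7, 80.2 and 63.0 TPM in the sham group at day 3 and at 49.4, 52.8 and 51.9 TPM at day 6. In CAP-treated wounds it was at 80.1, 50.2 and 44.7 TPM at day 3 and at 136, 162 and 107 TPM at day 6. All 3 libraries of CAP at day 6 were above the other 9, which overlapped between groups. Its mean at day 6 was 135 ± 27.8 TPM (SD, n = 3) in CAP and 51.4 ± 1.77 TPM (SD, n = 3) in the sham group, 1.37 ± 0.18 (SE) apart on the log2 scale.

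Zbtb7c was at 7.26, 18.5 and 13.2 TPM in sham wounds at day 3, at 9.14, 8.57 and 7.35 TPM in sham wounds at day 6, at 16.3, 10.8 and 6.78 TPM in CAP-treated wounds at day 3 and at 22.5, 19.2 and 16.5 TPM in CAP-treated wounds at day 6. Its CAP libraries at day 6 overlapped the sham group of day 3, in which replicate 2 was above the lowest of them. The day 6 difference was 1.20 ± 0.16 (SE) on the log2 scale, from 8.35 ± 0.915 TPM (SD, n = 3) to 19.4 ± 2.99 TPM (SD, n = 3). Its relatives Zbtb7a and Zbtb7b had higher levels. Zbtb7b was higher in CAP without overlap, at 157 ± 24.0 TPM (SD, n = 3) against 115 ± 15.9 TPM (SD, n = 3), and Zbtb7a overlapped.

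Sh3gl2 was at 5.87, 13.7 and 8.91 TPM in sham wounds at day 3, at 7.05, 6.86 and 7.14 TPM in sham wounds at day 6, at 12.5, 8.41 and 8.66 TPM in CAP-treated wounds at day 3 and at 13.7, 18.1 and 13.7 TPM in CAP-treated wounds at day 6. The sham libraries of day 6 had the lowest SD of any member and group, 0.141 TPM around 7.02 TPM. CAP at day 6 lay above the CAP libraries of day 3 and overlapped the sham libraries of day 3 at replicate 2, and its log2 difference from sham was 1.09 ± 0.13 (SE). Of the 8 other endophilins and endocytosis partners with enough signal at day 6, Sh3glb2 (endophilin B2) was higher without overlap and Bin1 (amphiphysin 2) lower. Their log2 differences were 0.35 and -0.47, and the shares over all genes were 8.01% higher and 18.0% lower. Dnm2 (dynamin 2) and Sh3gl1 (endophilin A2) had the highest levels of that list and overlapped.

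Wnk2 was at 10.49, 14.49 and 12.002 TPM in sham wounds at day 3, at 10.40, 9.23 and 10.15 TPM in sham wounds at day 6, at 14.3, 11.0 and 11.9 TPM in CAP-treated wounds at day 3 and at 18.4, 20.1 and 17.5 TPM in CAP-treated wounds at day 6. Its sham libraries of day 6 were all below those of day 3, with 10.40 TPM as the highest of day 6 and 10.49 TPM as the lowest of day 3. The day 6 difference between CAP and sham was 0.91 ± 0.08 (SE) on the log2 scale. Among 11 other genes of the WNK pathway, 2 were higher without overlap, the kinase gene Wnk4 and the ubiquitin ligase gene Cul3. The 4 lower ones were Stk39, Slc12a4, Slc12a7 and Klhl3, beside 8.01% of all genes higher and 18.0% lower. Wnk1 and Cab39, of the highest level beside Cul3, overlapped. Stk39 encodes the kinase SPAK that WNK kinases activate, and it was at 11.6 ± 0.649 TPM (SD, n = 3) in CAP and 14.1 ± 1.38 TPM (SD, n = 3) in the sham group.

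Cd109 was at 45.9, 67.5 and 60.5 TPM in sham wounds at day 3, at 46.88, 48.38 and 44.99 TPM in sham wounds at day 6, at 66.4, 55.8 and 54.4 TPM in CAP-treated wounds at day 3 and at 83.9, 88.9 and 73.1 TPM in CAP-treated wounds at day 6. Its groups kept the same order as those of Wnk2 and Sh3gl2, with sham day 6 lowest, then sham day 3, CAP day 3 and CAP day 6. Of these steps between neighbouring groups, the one to CAP at day 6 was free of overlap for all 3 genes, and the one from sham day 6 to sham day 3 for Wnk2 alone. The log2 difference at day 6 was 0.80 ± 0.09 (SE), the smallest of the 7. Of the 10 other genes of the alpha-2-macroglobulin family and TGF-β receptors with enough signal at day 6, 0 were higher in CAP without overlap. The 3 lower ones were Tgfb2, Tgfb3 and Eng, the TGF-β co-receptor endoglin of endothelial cells. The shares over all genes were 8.01% higher and 18.0% lower. C3 and Tgfbr2, of the highest level in that list, overlapped.

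**Figure D1:**
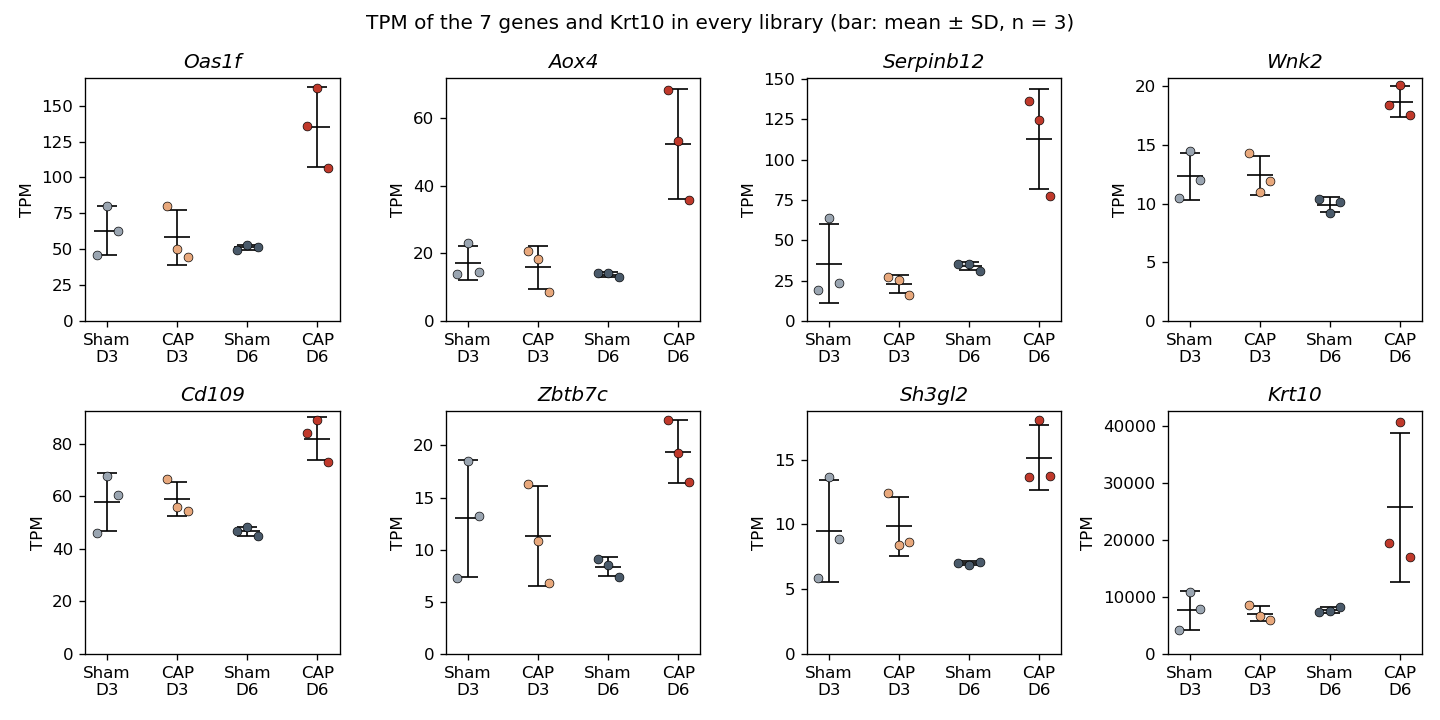
TPM of each of the 7 genes and of Krt10 in every library (points), with the mean and SD of each group of 3 (bars), for sham and CAP wounds at day 3 (D3) and day 6 (D6). The 3 CAP libraries of day 6 lie above every sham library of day 6 in each panel, and for Zbtb7c and Sh3gl2 they overlap the sham libraries of day 3.

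At day 3, whose libraries played no part in the choice of the genes, 0 of the 7 genes passed the test for a difference between CAP and sham. The test was limma on log2(TPM + 0.1), and a call needed an unadjusted p under 0.05 and at least a 2-fold change. All 7 genes passed the filter, which asked for an average of 0.3 TPM or more in each group. Of the 18330 genes tested, 290 were called (1.58%), 78 of them higher and 212 lower in CAP. After Benjamini-Hochberg correction of the limma p-values, 3 of the 18330 genes had an adjusted p under 0.05. For all 7 members the CAP and sham libraries overlapped, while over all genes 2.86% were higher and 8.75% lower in CAP without overlap.

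The estimates at day 3 were small, but the intervals were of different width. For Cd109 the log2 difference was 0.03 with a 95% interval from -0.35 to 0.42, and for Wnk2 it was 0.02 with an interval from -0.37 to 0.40. The difference was 0.11 (interval -0.64 to 0.87) for Sh3gl2, -0.12 (interval -0.78 to 0.53) for Oas1f, -0.16 (interval -1.01 to 0.68) for Aox4 and -0.19 (interval -1.19 to 0.81) for Zbtb7c. Serpinb12 had the widest interval, from -1.52 to 0.61 around -0.45. Adjusted p-values by limma with Benjamini-Hochberg correction over all genes tested ran from 0.929 for Serpinb12 to 0.996 for Wnk2, Cd109 and Sh3gl2. A level 2-fold higher in CAP lies outside the interval for all 7 genes, and a level 2-fold lower lies outside it for Wnk2, Cd109, Sh3gl2 and Oas1f but inside it for Aox4, Serpinb12 and Zbtb7c. The sign of each of the 7 estimates turned when 1 library was left out, so no direction is given for day 3.

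**Figure D2:**
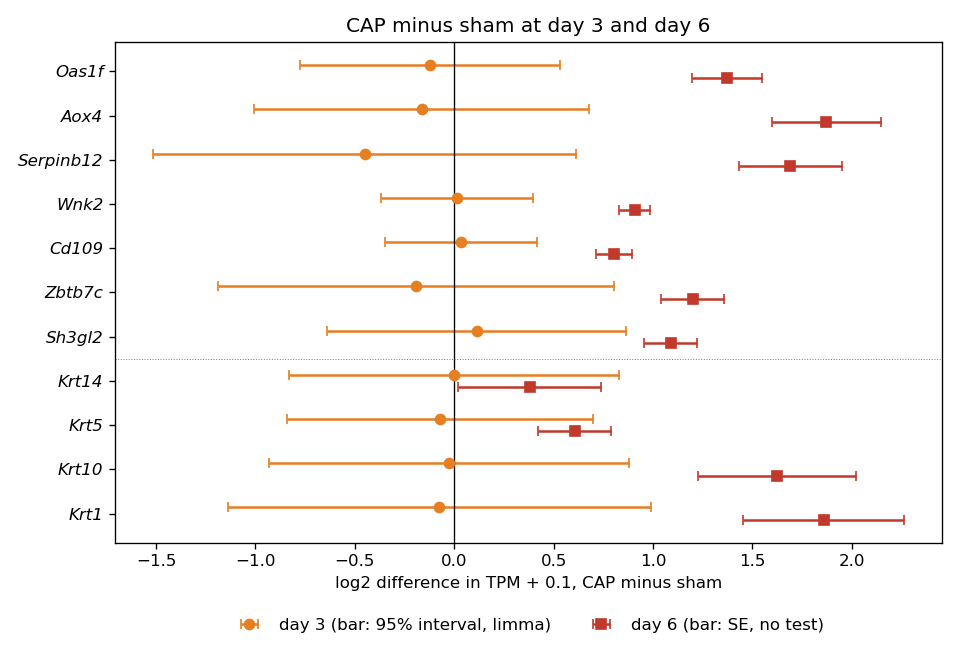
Log2 difference in TPM + 0.1 between CAP and sham for the 7 genes and 4 keratins, with 95% limma intervals at day 3 (circles) and the SE of the difference at day 6 (squares, no test). At day 3 the intervals of all 11 genes include 0, and at day 6 the 7 genes lie between 0.80 and 1.87, with Krt10 at 1.62 and Krt14 at 0.38.

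Within the groups of day 3 the 7 genes varied together. In the sham group all 7 had their highest value in replicate 2 and their lowest in replicate 1. Over all genes of at least 0.3 TPM, 32.9% were highest in replicate 2 and 33.2% lowest in replicate 1. In CAP-treated wounds of day 3 all 7 were highest in replicate 1, which held the highest value of 42.1% of all genes, while 5 were lowest in replicate 3 and 2 in replicate 2. Krt10 followed the same libraries, at 4187, 10978 and 7995 TPM in the sham group and at 8668, 6700 (replicate 2) and 5993 TPM in the CAP group. At day 6 the 3 CAP replicates were less alike in this way, with 4 members highest in replicate 2, 3 highest in replicate 1 and 6 lowest in replicate 3. Of all genes, 27.3% were highest in that replicate 2, 29.3% highest in replicate 1 and 29.6% lowest in replicate 3. The members of a library share its tissue sample, so these counts describe 6 libraries of day 3 and not 7 independent genes.

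Relative to the keratins, the day 6 difference took another form for each reference. Krt10 was at 7432, 7490 and 8321 TPM in sham wounds of day 6 and at 19544, 40801 and 16989 TPM in CAP-treated wounds, a log2 difference of 1.62 ± 0.40 (SE). Krt14 was at 7978, 8684 and 7369 TPM in sham wounds of day 6 and at 15762, 10563 and 6740 TPM in CAP-treated wounds, so that its groups overlapped. Krt10 per Krt14 was 0.932, 0.862 and 1.13 in the sham libraries and 1.24, 3.86 and 2.52 in the CAP libraries.

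Per Krt14, 4 of the 7 genes remained higher in CAP at day 6 without overlap, namely Oas1f, Aox4, Serpinb12 and Zbtb7c. Over all other genes 0.753% were higher per Krt14 without overlap and 7.62% lower, and nothing is read from the members' count, since the day 6 values chose them. Without CAP replicate 1 of day 6, all 7 were higher per Krt14 without overlap. The share over all genes was not computed for that setting, in which fewer libraries make overlap less likely, so nothing is read from this count either. Aox4 was at 1.78, 1.63 and 1.76 TPM per 1000 TPM of Krt14 in sham wounds and at 4.34, 5.04 and 5.30 in CAP-treated wounds, the most even of the ratios among CAP libraries. For Serpinb12 this ratio was 4.47, 4.05 and 4.21 in sham wounds and 8.65, 11.8 and 11.5 in CAP-treated wounds. The ratios of Wnk2, Cd109 and Sh3gl2 overlapped, because in each case CAP replicate 1, the library with the most Krt14 at day 6, fell within or below the sham range. Cd109, for example, was at 5.32 per 1000 TPM of Krt14 in that library and at 5.57 to 6.11 in the sham libraries.

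Per Krt10, none of the 7 genes was higher in CAP at day 6 without overlap, and 3 were lower. Over all other genes 0.00546% were higher and 92.3% lower per Krt10 without overlap. The 3 lower members were Wnk2, Cd109 and Sh3gl2, with log2 differences of the ratio of -0.72, -0.82 and -0.54. Without CAP replicate 2 of day 6 these were -0.38, -0.49 and -0.28. Removing a library cannot bring in an overlap, so nothing is read from their staying apart. In that setting Aox4 was higher without overlap, at 0.60, and the share over all genes was not computed. Cd109 was at 6.31, 6.46 and 5.41 TPM per 1000 TPM of Krt10 in sham wounds and at 4.29, 2.18 and 4.30 in CAP-treated wounds. Aox4 and Serpinb12 had the ratios closest to or above those of the sham group, with log2 differences of 0.25 and 0.07, which turned to -0.11 and -0.23 without CAP replicate 1. Serpinb12 was also at -0.0487 without sham replicate 3. Aox4 was at 1.91, 1.89 and 1.56 TPM per 1000 TPM of Krt10 in sham wounds and at 3.498, 1.30 and 2.101 in CAP-treated wounds. CAP replicate 2, which had the highest Krt10, had the lowest ratio to Krt10 for each of the 7 genes.

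**Figure D3:**
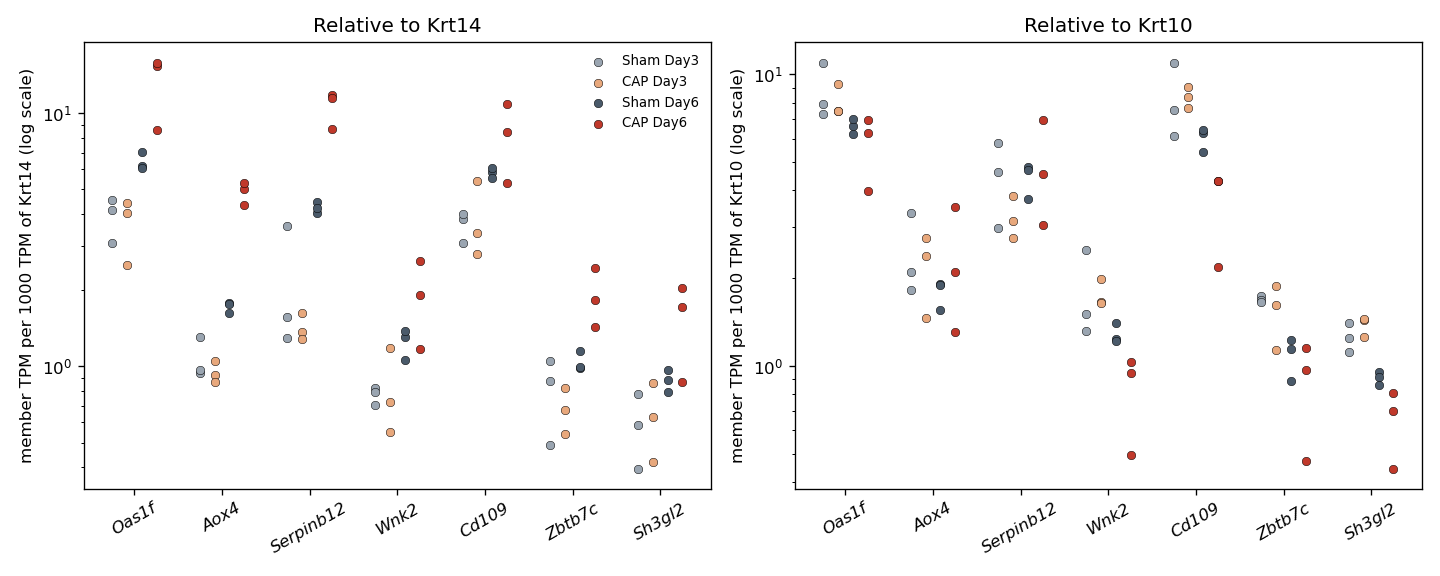
TPM of each gene per 1000 TPM of Krt14 (left) and of Krt10 (right) in every library, on log axes, with the 4 groups side by side for each gene. At day 6 the CAP points of Oas1f, Aox4, Serpinb12 and Zbtb7c lie above the sham points on the left, and those of Wnk2, Cd109 and Sh3gl2 lie below them on the right.

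At day 3 the 14 ratios to Krt14 and Krt10 overlapped between CAP and sham without exception. Over all other genes, 0.649% were higher and 2.30% lower per Krt14 without overlap at day 3, and 0.502% were higher and 1.15% lower per Krt10. Their 2-sided exact permutation p-values ran from 0.2 to 1, with an adjusted p of 1 for each over the 14 ratios, in a design of 3 against 3 whose smallest possible p is 0.1. The value of 0.2 belonged to Sh3gl2 per Krt10, at 1.25 ± 0.143 (SD, n = 3) per 1000 TPM of Krt10 in the sham group and 1.38 ± 0.108 (SD, n = 3) in CAP-treated wounds.

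Genes of the epidermal layers were read beside the 7 genes. At day 6, 9 of 12 spinous genes and 14 of 20 granular and cornified genes were higher in CAP without overlap and 0 were lower. Over all genes 8.01% were higher and 18.0% lower without overlap. Of 12 basal genes 2 were higher and 0 lower, and of 12 wound edge genes 0 were higher and 1 lower, the integrin gene Itga5 with a log2 difference of -1.03. The median log2 differences were 0.78, 1.09, 0.08 and -0.05 in that order, beside -0.12 over all genes and 1.20 over the 7 members. Spinous genes summed to between 19692 and 22589 TPM in the sham libraries and between 40940.5 and 90686 TPM in the CAP libraries. Among the examples, filaggrin (Flg) had a log2 difference of 2.26 and loricrin (Lor) one of 1.44. Of the keratins of migrating wound edge cells, Krt6a, Krt16 and Krt17 were at -0.02, 0.31 and -0.39, each with overlapping groups. The keratinocyte genes nearest to the limit of overlap were Spink5 and Krtdap inside it, where the lowest CAP library was 1.01 and 1.05 times the highest sham library, and Ptgs1 and Slurp1 outside it, at 0.983 and 0.981 times. For the 7 genes, chosen for such a gap, this value ran from 1.51 for Cd109 to 2.51 for Aox4. A wide gap was not particular to them, since the value was 2.04 for Krt10 and 2.05 for Krt1. For Flg the lowest CAP library was at 1646 TPM and the highest sham library at 585 TPM. At day 3, 0 of 56 keratinocyte genes of these 4 lists passed the test, beside 1.58% called over all genes, so nothing is read from this count. Their median log2 differences at day 3 were -0.02 for spinous, 0.03 for granular and cornified, -0.07 for basal and 0.10 for wound edge genes, beside -0.05 over all genes.

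Markers of other cell types were read at day 6 against the 8.01% of all genes higher and 18.0% lower in CAP without overlap. Of 6 endothelial markers, 4 were lower in CAP without overlap and 0 higher, and their sum was 233 to 320 TPM in sham wounds and 75.3 to 197 TPM in CAP-treated wounds, with none of the 6 at 0. Of 10 macrophage and neutrophil markers, 2 were lower and 0 higher, with sums of 9729 to 11590.1 TPM in sham wounds and 4342 to 10290.4 TPM in CAP-treated wounds. Of 9 fibroblast markers 1 was lower, with sums of 21039 to 27922 TPM in sham wounds and 17240.0 to 23181 TPM in CAP-treated wounds. Sebaceous gland markers summed to 416 to 517 TPM in sham wounds and to 550 to 642 TPM in CAP-treated wounds, and 2 of the 10 measured at day 6 were higher, Elovl3 and Elovl4. The sum followed Elovl4, at 192 TPM on average in sham wounds and 360 TPM in CAP-treated wounds, while Mgst1 (151 and 126 TPM) and Krt79 (100.007 and 101 TPM) overlapped. The part of these cell types in the day 6 differences of the 7 genes was not tested. Of the markers measured at day 6, 2 of 8 for neurons and Schwann cells and 1 of 8 for skeletal muscle were lower, and 1 of 7 for adipocytes was higher. Hair follicle markers were low, summing to 4.57 to 5.21 TPM in the CAP libraries of day 6 and to 5.42 to 66.7 TPM in the sham libraries.

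The relatives of Oas1f were read at day 3. Of 9 other genes of the oligoadenylate synthetase list that were tested, 6 were called lower in CAP-treated wounds at day 3 and 0 higher, beside 1.58% called in either direction over all genes. The list's median log2 difference was -1.34, and that of Oas1f was -0.12. The 6 genes were Oas1a, Oas1g, Oas2, Oas3, Oasl1 and Oasl2, with log2 differences from -1.82 for Oas1g to -1.17 for Oas1a. Oas1g was at 23.90, 19.75 and 24.29 TPM in the sham group and at 10.55, 4.22 and 5.70 TPM in CAP-treated wounds, and Oasl2 was at 114, 87.3 and 107 TPM and at 63.7, 20.4 and 36.4 TPM. No library of either group overlapped the other for these 2 genes. Their adjusted p-values over all genes, by limma with Benjamini-Hochberg correction, lay between 0.500 and 0.539, so that none of the 6 passed after correction. Leaving out CAP replicate 2 of day 3, the library with the lowest values, left 4 genes called, without Oas1a and Oasl1. Leaving out CAP replicate 1 gave 8, with Oas1b and Oas1e added. The difference between Oas1f and its relatives was not tested.

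At day 6 a second gene of the family, Oas1e, was also higher in CAP without overlap, at 4.86, 7.11 and 3.76 TPM against 2.89, 1.26 and 2.08 TPM. Oasl1 was lower without overlap, at 6.50, 5.04 and 4.15 TPM against 11.6, 8.52 and 9.03 TPM. Of the 9 other genes of the list measured at day 6, 1 was thus higher and 1 lower. Over all genes 8.01% were higher and 18.0% lower without overlap, so nothing is read from these counts. Oas1c had a log2 difference of 0.59 with overlapping groups, and the 6 other tested oligoadenylate synthetase genes had values from -1.19 for Oas3 to -0.41 for Oas1b. Of the stretches of 31 bases in Oas1f transcripts, 6.49% also occur in Oas1c, and the part of shared sequence in these values was not tested. By level, Oas1f was the most abundant gene of the list in CAP-treated wounds at day 6, at 135 TPM, followed by Oasl2 at 23.3 TPM. Oas1f was also ahead of Oasl2 in sham wounds of day 6, at 51.4 against 40.9 TPM, and in CAP-treated wounds of day 3, at 58.3 against 40.2 TPM. Only in sham wounds of day 3 did Oasl2 come first, at 103 TPM, ahead of Oas1f at 63.0 TPM.

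**Figure D4:**
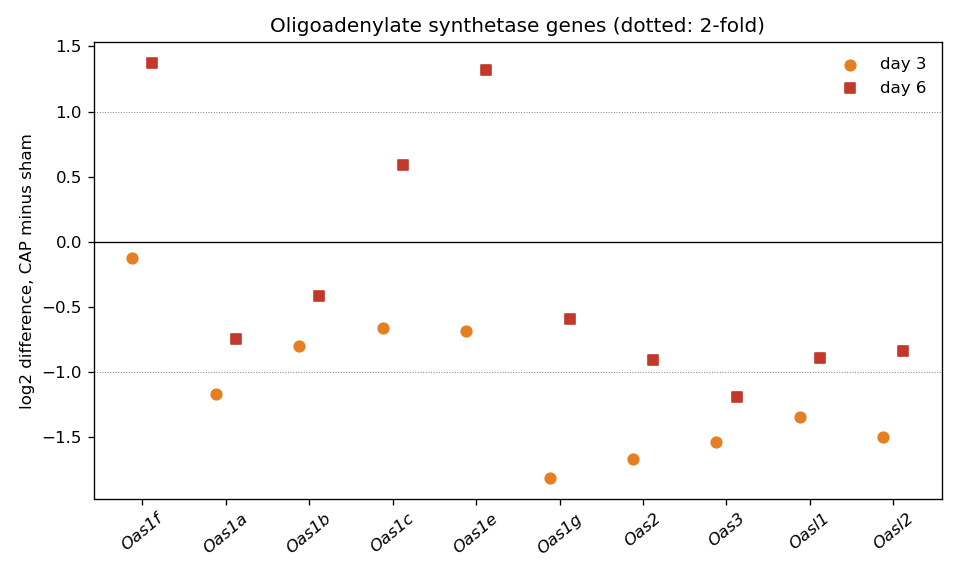
Log2 difference in TPM + 0.1 between CAP and sham for Oas1f and the 9 other oligoadenylate synthetase genes tested, at day 3 (circles) and day 6 (squares), with dotted lines at a 2-fold change. At day 3 the genes called lower lie below the lower dotted line and Oas1f lies near 0, and at day 6 Oas1f and Oas1e lie above the upper dotted line.

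No gene of the lists built around the other 6 members passed the test at day 3, beside 1.58% called over all genes, so nothing is read from this count. These lists held 11 tested genes for molybdenum and retinoid enzymes, 13 clade B serpins, 11 WNK pathway genes, 8 genes of the alpha-2-macroglobulin family and TGF-β receptors, 2 ZBTB7 genes and 8 endophilins and partners, with median log2 differences from -0.32 to 0.06. The erythroid markers were the list that stood apart at day 3, with 5 of 5 tested genes higher in CAP and sums of 514 to 753 TPM in sham wounds and 2357 to 2803 TPM in CAP-treated wounds. Their part in the day 3 values of the 7 genes was not tested.

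The profiles of the 7 genes over the 12 libraries resembled one another. Pearson's r of log2(TPM + 0.1) for the 21 pairs ran from 0.77 for Serpinb12 with Sh3gl2 to 0.97 for Wnk2 with Cd109, with a median of 0.90. Part of this likeness was fixed by the choice of genes, since all were picked for high values in the same 3 libraries. Outside the members, the 5 genes most like their mean profile were Mfap3l, Plxdc2, Lancl1, Srcin1 and Ggct, with r from 0.97 to 0.98. Ggct encodes gamma-glutamylcyclotransferase of glutathione breakdown, and it was at 97 ± 14 TPM (SD, n = 3) in sham wounds and 215 ± 43 TPM (SD, n = 3) in CAP-treated wounds of day 6. The r of the mean profile was 0.92 with Krt10, 0.95 with Krt1, 0.82 with Krt5 and 0.15 with Krt14. The gene most like Serpinb12 was Serpinb10, another clade B serpin (r = 0.96), and the one most like Zbtb7c was Rassf9 (r = 0.98). Oas1f was most like Gm11940 (r = 0.98), a transcript on the strand opposite Krt10. Of its 417 exon bases, 146 are shared with Krt10 exons, and reads from those bases cannot be told apart where counting ignored strand. The nearest profiles were Npbwr1 for Aox4, Sgsm2 for Wnk2, Gm20219 for Cd109 and Abcd3 for Sh3gl2, with r from 0.96 to 0.97. The points share their libraries and 3 of the 12 form a cluster of high values, so these r describe likeness of profile alone.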

How the data were processed

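Total RNA of cutaneous wounds was sequenced in 12 libraries (SureSelect XT HS2 mRNA kit). The authors deposited 1 table of TPM values per library. Per the labels and the study's methods, reads were trimmed with Trimmomatic 0.36, referred to mm10 and quantified with StringTie. The sources used here do not name the aligner or strand setting. Values of 0 stand at 0.0001, and TPM keeps no depth, so no counting error can be given. Groups came from the labels. At day 3, CAP was compared with sham by limma 3.58.1 (R 4.3.3) on log2(TPM + 0.1), for genes averaging 0.3 TPM or more in each group, with the variance trend. The fit was tested on simulated data. Ratios used an exact permutation test. Day 6 and day-to-day values were not tested, since day 6 chose the members. Named genes were the 7 members, Krt14, Krt10, family genes that were called at day 3 or of the highest level, and the most similar profiles. Genes named for not overlapping at day 6 and the keratinocyte examples were chosen after their values were seen. Members and lists were chosen with earlier results of these data known. Alternatives were another pseudocount, no filter, a joint fit, a replicate block, median-ratio scaling, other keratins and leaving out each library. 1 listed gene is not reported here.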

Additional observations from a re-analysis of the deposited data

How the results depend on the processing

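None of the 7 genes was called at day 3 under any of the 11 alternatives tried. Leaving out 1 library at a time moved the log2 differences of day 3 across 0 for each gene, from -0.37 to 0.0717 for Oas1f, -0.40 to 0.22 for Aox4, -0.79 to 0.0722 for Serpinb12, -0.0942 to 0.14 for Wnk2, -0.12 to 0.15 for Cd109, -0.56 to 0.13 for Zbtb7c and -0.19 to 0.42 for Sh3gl2, and the cause was not tested. Replicate numbers gave no sign of pairing, with same-numbered deviations correlated at -0.108, 0.0085 and 0.038, but with so few libraries this cannot exclude a pairing. With a replicate block 85 genes were called higher and 213 lower, with 0 members called. Without CAP Day3 replicate 1, 150 genes were called higher and 360 lower, against 78 and 212. Ratios to the keratins that did not overlap at day 3, in either direction, numbered 0 of 14, and 1 with Krt5 and Krt1 as references. They numbered 0 to 4 when 1 library was left out, where the share over all genes was not computed. The 4, without Sham Day3 replicate 1, were 1 lower per Krt14 and 3 higher per Krt10. At day 6 the log2 differences under leave-one-out ran from 1.66 to 2.12 for Aox4 and from 0.74 to 0.88 for Cd109. Their sign could not turn, since the members were chosen for not overlapping in these libraries, so nothing is read from it. Median-ratio scaling raised Wnk2 to 1.03 and Cd109 to 0.92. The 7 ratios without overlap at day 6 were 4 higher per Krt14 and 3 lower per Krt10. With Krt5 and Krt1 as references they became 10, with 5 higher per Krt5 and 5 lower per Krt1. The share over all genes was not computed for these 2 references or with a library left out. When 1 library was left out the ratios without overlap numbered 7 to 10. This count could not fall, since removing a library cannot bring in an overlap. The 10, without CAP Day6 replicate 1, were 7 higher per Krt14 and 3 lower per Krt10. The number of other oligoadenylate synthetase genes called lower at day 3 ranged from 4 to 8 when 1 library was left out and was 6 in the other settings, which were added after the data were seen. A pseudocount of 1 TPM called 43 genes higher and 111 lower at day 3, and no filter called 210 and 358 of 29430. The unknown depth limits what can be said of the low genes.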
